A study of Mus musculus with 2 samples.

Results

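Interferon-high macrophages are macrophages that hold transcripts of several interferon-stimulated genes at once. They were studied here in single-cell RNA sequencing data from embryonic mouse brain. The members were chosen by their own counts. A cell barcode was kept with at least 1000 UMIs (unique molecular identifiers, each standing for 1 captured transcript), at least 500 genes and at most 20% of UMIs from mitochondrially encoded genes. It counted as a macrophage with a UMI for at least 3 of the 6 genes Csf1r, C1qa, C1qb, C1qc, Tyrobp and Fcer1g, and as interferon-high with a UMI for at least 3 of the 4 genes Rsad2, Ifit1, Ifit2 and Ifit3. Of 27041 barcodes kept, 3461 were macrophages and 386 of these were interferon-high. The 2380 macrophages holding 0 of the 4 genes, called interferon-negative here, were the reference population.

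The brains were taken at E12.5 from Foxq1flox/flox mice, in which the gene of the transcription factor Foxq1 is flanked by loxP sites, and from Foxq1iECKO mice, with 1 library per genotype. In common usage iECKO stands for an inducible knockout in endothelial cells. The labels used here do not state the promoter that drives Cre, the time of induction, the deleted part of Foxq1 or the number and sex of embryos. They also do not state whether the Foxq1flox/flox mice carried Cre or received the inducing agent. Per the labels, dissociated cells were sorted with beads against CD31, an endothelial surface protein that some blood cells also carry, and both samples are labelled as endothelial cells, which the members are not.

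Type I interferons are secreted proteins that cells make when sensors such as RIG-I, MDA5 or cGAS meet foreign or misplaced nucleic acid. They bind the receptor Ifnar1/Ifnar2, whose kinases Jak1 and Tyk2 pass the signal to the complex ISGF3. Stat2 and Irf9 are parts of this complex, which binds a short promoter element, the interferon-stimulated response element (ISRE). The products include antiviral enzymes, GTPases that attack intracellular parasites, chemokines, and brakes such as Usp18 that end the signal. In the embryonic brain the macrophages are microglia, inside the tissue, and border-associated macrophages of the meninges and vessels.

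The libraries held 76580165 and 72445925 UMIs for Foxq1flox/flox and Foxq1iECKO, and 13933 and 13108 barcodes were kept, with median depths of 4238 and 4123.5 UMIs. Both libraries held 270 of the same barcodes, 189 of them kept, among which were 0 and 2 members. Foxq1 had a UMI in 51.8% of 3265 endothelial-gated cells of Foxq1flox/flox and in 43.0% of 2669 of Foxq1iECKO, at 479 and 272 CPM (UMIs of a gene per 1000000 UMIs summed over the cells). A 3′ tag outside the deleted part would not report the deletion. Among the members, 8 of 112 (7.14%) and 12 of 274 (4.38%) held a Foxq1 UMI, with median depths of 5874.5 and 5985.5 UMIs. In neuron-gated cells, a stand-in for free RNA, which was not measured, the shares were 5.45% and 4.85% at lower median depths of 3544 and 3719.5 UMIs. The members' Foxq1 is therefore not told apart from background. Intervals given below are exact 95% intervals (Clopper-Pearson for shares, conditional on the summed UMIs for ratios) and cover counting error only. With 1 library per genotype no test between genotypes was possible. The contrast with interferon-negative cells is the one that chose the members, so it is described and not tested.

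All members held macrophage genes because the rule required them, so the levels of gate genes are given only as a description. Fcer1g, a signalling chain of Fc receptors, was at 2019 and 1928 CPM in Foxq1flox/flox and Foxq1iECKO members, against 1739 in interferon-negative cells of either library. Csf1r, the receptor for the macrophage growth factor, was at 475 and 448 CPM in the members, against 568.5 and 572 in the interferon-negative cells. The endothelial, pericyte, fibroblast, neuron, radial glia and erythroid marker lists, of 6 genes each, all had a median of 0 UMIs per 10000 over the members. Barcodes that also passed the gate of another class (at least 3 of its 6 markers) made up 16 (14.3%) and 58 (21.2%) of the members, against 13.9% and 15% of the interferon-negative macrophages. Members with Xist UMIs and none from 4 Y-linked genes numbered 63 and 129. Those with Y-linked UMIs and no Xist numbered 17 and 61. Both kinds of UMI were in 26 and 56 members and neither in 6 and 28, so single members are not assigned a sex. Transcripts of Xist and of Y-linked genes were thus present among the members of each library.

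The 4 genes of the interferon gate defined the members, and their levels are given as a description. Rsad2, which encodes viperin, an enzyme that makes a chain-terminating nucleotide, had 2639 UMIs in 102 of the 112 Foxq1flox/flox members (3504 CPM) and 7161 UMIs in 256 of the 274 Foxq1iECKO members (3978 CPM). Ifit1, which binds viral RNA caps, was at 1529 and 1663 CPM. Ifit2, of the same family, was at 1225 and 914 CPM. Ifit3, a partner of Ifit1 and Ifit2, was at 690 and 670.5 CPM. No single cell held more than 6.59% of any of these counts. The share held by the few highest cells together was not measured for these genes.

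The gate took a large part of each gene's transcripts from a small part of the cells. Members held 58.6% and 70.7% of all Rsad2 UMIs in the 2 libraries and 46.6% and 54.6% of all Ifit3 UMIs. Just inside the threshold, 42 and 108 macrophages held exactly 3 of the 4 genes, and just outside it, 59 and 111 held exactly 2. On the macrophage side, 34 and 103 members held exactly 3 of the 6 macrophage genes, while 18 and 48 barcodes past the interferon gate held exactly 2 and were left out.

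Promoter sequences of gate genes and of other genes named below are shown because the 4 gate genes and much of the interferon response are known targets of ISGF3. The sequences come from RefSeq (GRCm38.p6) and run 5′ to 3′ on the gene's strand, from 220 to 56 bases before the RefSeq start. The Ifit1 stretch was shortened to 145 to 56 bases to keep out an annotated exon. Capitals mark an ISRE core, GAAANNGAAA or its reverse complement TTTCNNTTTC, where matches may overlap. Rsad2 is on the minus strand at chr12:26456508-26456672, with 1 match that begins 120 bases before the start. Ifit1 is on the plus strand at chr19:34640744-34640833, with matches at 104 and 85 bases. Ifit3, also on the plus strand, is at chr19:34583309-34583473, with matches at 156 and 122 bases. Isg15, on the minus strand, is at chr4:156200874-156201038, where 3 overlapping matches begin at 78, 72 and 66 bases. Cxcl10, on the minus strand, is at chr5:92348945-92349109 with 1 match at 213 bases. Ifnb1, the interferon itself, is on the minus strand at chr4:88522850-88523014 and holds no match.
Rsad2: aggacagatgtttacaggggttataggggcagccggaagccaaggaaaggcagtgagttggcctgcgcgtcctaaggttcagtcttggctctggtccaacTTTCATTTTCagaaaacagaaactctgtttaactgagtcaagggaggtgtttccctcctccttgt
Ifit1: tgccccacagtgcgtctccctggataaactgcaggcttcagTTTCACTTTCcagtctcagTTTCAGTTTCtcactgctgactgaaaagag
Ifit3: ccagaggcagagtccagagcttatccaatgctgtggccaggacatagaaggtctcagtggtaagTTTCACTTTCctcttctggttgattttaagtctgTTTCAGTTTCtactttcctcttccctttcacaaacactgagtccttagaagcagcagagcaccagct
Isg15: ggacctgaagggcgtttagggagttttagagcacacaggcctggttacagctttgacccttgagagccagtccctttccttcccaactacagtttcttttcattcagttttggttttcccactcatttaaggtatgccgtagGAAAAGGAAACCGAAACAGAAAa
Cxcl10: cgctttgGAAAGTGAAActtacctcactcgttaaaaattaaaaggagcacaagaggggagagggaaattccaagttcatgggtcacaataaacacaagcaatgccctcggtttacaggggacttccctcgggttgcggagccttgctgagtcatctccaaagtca
Ifnb1: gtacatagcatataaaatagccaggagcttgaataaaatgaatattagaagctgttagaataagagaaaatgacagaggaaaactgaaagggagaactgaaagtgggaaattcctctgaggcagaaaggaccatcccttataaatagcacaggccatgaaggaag

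Both RefSeq starts of Ifit2 lacked the motif in the 250 bases before them. Over all 27025 genes in the promoter table, 936 (3.46%) held it in the 250 bases before a start, as did 200 of the 5550 genes (3.60%) that passed the level filter described below and had an entry. Of the 214 genes higher in the members, described below, 177 had an entry and 38 of these (21.5%) held the motif. Of the 54 genes lower in the members, 40 had an entry and 1 of these (2.5%) held it. The GBP and IRG GTPases held it in 9 of 10 entries, and the antiviral effectors in 11 of 27. A match is a stretch of letters and not a measured binding site.

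The share of macrophages that were interferon-high differed between the libraries. It was 112 of 1490 (7.52%, interval 6.23 to 8.97%) in Foxq1flox/flox and 274 of 1971 (13.9%, interval 12.4 to 15.5%) in Foxq1iECKO, a log2 ratio of 0.89. Members were deeper than interferon-negative cells, with median depths of 5874.5 and 5985.5 against 5139 and 4675 UMIs. With each macrophage thinned to 2000 UMIs, the shares were 5.70% and 9.98%. The thinning left out 69 and 98 shallower cells, and the same deeper cells had shares of 7.81% and 14.4% before it. The higher share lay in the Foxq1iECKO library in each of these counts, and how far 2 libraries of 1 genotype would differ cannot be told from these data.

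Members were border-gated more often, and microglia-gated less often, than interferon-negative macrophages. With a gate of at least 3 of 6 border markers (Lyve1, Mrc1, Cd163, F13a1, Ms4a7 and Cbr2) and fewer than 3 of 6 microglia markers (Sall1, P2ry12, Gpr34, Olfml3, Tmem119 and Siglech), border-gated cells were 53.6% and 67.2% of the members, against 26.7% and 33.8% of the interferon-negative cells. The reverse gate, microglia-gated, held 16.1% and 7.66% of the members and 41.9% and 35.7% of the interferon-negative cells. Within border-gated macrophages, 60 of 455 (13.2%, interval 10.2 to 16.6%) and 184 of 845 (21.8%, interval 19.0 to 24.7%) were interferon-high. Within microglia-gated macrophages the counts were 18 of 560 (3.21%) and 21 of 554 (3.79%). Cells in neither gate gave 30 of 450 (6.67%) and 62 of 538 (11.5%). Given the same weight for each subset in both libraries, the shares were 8.16% and 13.04%, a log2 ratio of 0.68.

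Other classes passed the interferon gate at lower shares. It was 1.19% and 1.91% of endothelial-gated cells, which exclude macrophages, 0.445% and 0.726% of fibroblast-gated cells and 0.144% and 0.270% of neuron-gated cells. Macrophages made up 112 of 197 (56.9%) and 274 of 409 (67.0%) of all barcodes past the interferon gate. The plot of shares by class shows the order of these values. The median depth of all macrophages was 5351 and 4981 UMIs, so their depth was above that of neuron-gated cells and below that of endothelial-gated cells (6191 and 6823 UMIs).

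**Figure D1:**
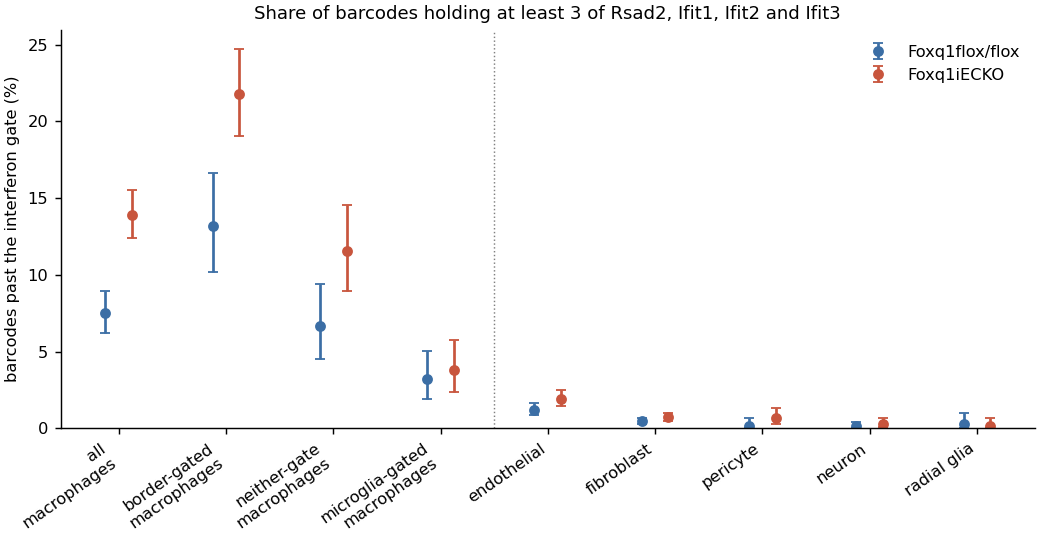
Percent of barcodes (vertical axis) that hold at least 3 of Rsad2, Ifit1, Ifit2 and Ifit3, in macrophages, their subsets and other classes (horizontal axis). Points are the 2 libraries and bars are exact 95% binomial intervals; border-gated macrophages stand at 13.2% and 21.8%, and neuron-gated cells at 0.144% and 0.270%.

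Interferon-stimulated genes outside the gate stood at the top of the genes higher in the members, and microglia markers and immediate early genes among those lower. Among 6925 genes with at least 20 CPM in 1 population, gate genes left out, 214 (3.09%) were at least 2-fold higher in the members in both libraries with both intervals clear of equality, and 54 (0.78%) were at least 2-fold lower. The median log2 ratio over all of them was −0.10 and −0.12. Size factors by the median of ratios put the shift of all genes at −0.08 and −0.11, and scaled by them 237 genes were higher and 40 lower. The highest by the weaker of the 2 interval limits were Cmpk2, Ifi205, Ifit3b, Ifit1bl1, Usp18, Tnfsf15, Ifnb1, Ccl5, Gbp5, Ifi209, Ifi206, Il27, Slfn5, Oasl1 and Irgm1. Among the lowest were Havcr2, Cstdc5, Nr4a1, Btg2, Egr2, P2ry12, Stfa1, Egr3, Golm1, Adamts1, Egr1, Sall1, Serpine2 and Gpr34. Counts of members of gene lists below are read as descriptions, since the same contrast chose the cells. The shares of all genes given beside them are those at 20 CPM, while the lists use a filter of 10 CPM. Without the barcodes past another class's gate, 241 genes were higher and 97 lower, and 202 and 47 of these were among the 214 and 54. How reads that fit several genes were counted is not given, so near-identical copies such as Ifit3 and Ifit3b, the Ifi200 genes and the Oas1 genes are uncertain one by one.

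**Figure D2:**
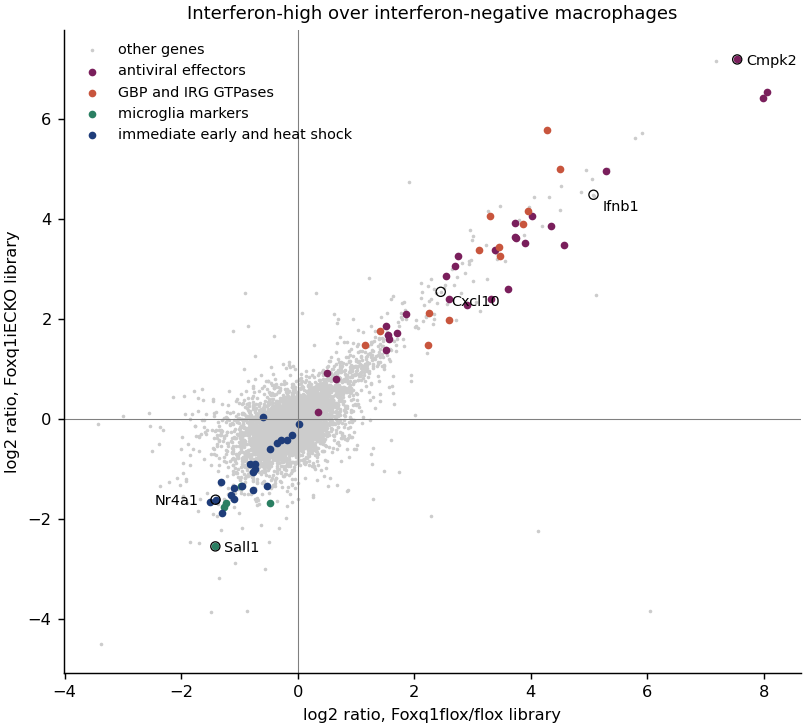
Log2 ratio of CPM, interferon-high over interferon-negative macrophages, in the Foxq1flox/flox library (horizontal axis) and the Foxq1iECKO library (vertical axis), 1 point per gene with at least 20 CPM. Antiviral effectors and GBP and IRG GTPases lie towards the upper right with Cmpk2 at 7.54 and 7.19, and microglia markers and immediate early genes towards the lower left with Sall1 at −1.41 and −2.55.

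Most antiviral effectors were at higher levels in the members. Of 29 measured (at least 10 CPM in 1 population), 26 were past 2-fold higher and 0 lower, against 3.09% and 0.78% of all genes. The median log2 ratio of the effectors was 2.91 in Foxq1flox/flox and 3.07 in Foxq1iECKO. Cmpk2, a mitochondrial nucleotide kinase whose gene neighbours Rsad2, was at 823 CPM in the members against 4.42 in interferon-negative cells in Foxq1flox/flox, and at 893 against 6.13 in Foxq1iECKO. Slfn5, a Schlafen family protein, was at 625 against 38.55 CPM and at 822 against 49.7. Oasl1, an OAS-like protein, was at 389 against 19.2 CPM and at 403 against 27.8. These levels lay far above the interferon-negative ones in both libraries. Isg15, a ubiquitin-like modifier chosen after its values were seen because its promoter is shown above, was at 65.05 against 2.74 CPM and at 56.7 against 5.09, log2 ratios of 4.57 and 3.48. The 3 measured effectors that did not pass were Bst2 (log2 ratio 0.50 and 0.93), Ifi27l2a (0.35 and 0.14) and Pnp (0.65 and 0.80). They are the remainder of the list, named for that reason.

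The breadth of the response was also seen cell by cell. With each cell thinned to 2000 UMIs, a Foxq1flox/flox member held a median of 7 of the 32 listed antiviral effectors, with a range of 1 to 18, and a Foxq1iECKO member held a median of 9, with a range of 0 to 18. Interferon-negative cells held a median of 2 in either library, with a highest value of 13 and 10. Single interferon-negative cells thus overlapped the members, while the medians lay apart.

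Nucleic acid sensors and the signalling chain were higher in part. Of 16 measured sensors, 10 were past 2-fold higher and 1 lower, against 3.09% and 0.78% of all genes, with medians of 1.87 and 1.80. Ifih1, which encodes MDA5, a sensor of long double-stranded RNA, was at 1044 against 110 CPM and at 837 against 121. Ddx58, which encodes RIG-I, was at 157 against 21.3 CPM and at 182 against 24.1. Ifi205, of the Ifi200 family of DNA-binding proteins, was at 133 against 0.91 CPM and at 169 against 1.20. Both RNA sensors and the Ifi200 gene stood clear of their levels in interferon-negative cells. Mavs, the adaptor below RIG-I and MDA5, was the single gene past 2-fold lower, from 2 and 11 UMIs in the members (2.66 against 13.7 CPM and 6.11 against 14.2).

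Among 11 JAK-STAT and interferon regulatory factor genes, 5 were past 2-fold higher and 0 lower, against 3.09% and 0.78% of all genes. Stat2 and Irf9 were among the 5. Stat2 was at 123.5 against 19.35 CPM and at 139 against 21.8. Irf9 was at 150 against 50.3 CPM and at 131 against 58.8. Also past 2-fold were Irf1 (log2 ratio 2.37 and 2.51) and Irf7 (4.502 and 4.18), an amplifier of interferon gene transcription, which had a UMI in 7.14% and 13.9% of the members. None of 5 measured receptor chains passed 2-fold in either direction. Their log2 ratios were 0.21 and 0.35 for Ifnar1, 0.47 and 0.23 for Ifnar2, −0.22 and −1.11 for Ifngr1, 0.06 and 0.25 for Ifngr2 and 0.07 and 0.24 for Il10rb.

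A list of regulators of the interferon response, brakes among them, was higher in part. Of 12 measured, 8 were past 2-fold higher and 0 lower, against 3.09% and 0.78% of all genes, with medians of 2.41 and 2.33. The 8 were not all brakes on interferon signalling, and Isg20, Trim25 and Nlrc5 were among them. Those that did not pass in both libraries were Socs3 (log2 ratio 0.99 and 1.205), Usp25 (0.82 and 1.23), Ptpn2 (0.16 and −0.30) and Ptpn6 (−0.21 and −0.78). Usp18, which binds Ifnar2 and removes Isg15 from proteins, was at 101 against 1.68 CPM and at 117 against 2.24. Socs1, an inhibitor of JAK kinases, was at 25.2 against 1.52 CPM and at 42.2 against 1.94. Cd274, which encodes the T cell checkpoint ligand PD-L1, was at 291 against 37.3 CPM and at 329 against 23.9. In all 3 the members' level was the higher in both libraries.

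All 13 measured GBP and IRG GTPases, which act on the membranes around intracellular microbes, were past 2-fold higher, against 3.09% of all genes. The medians over these GTPases were 3.30 and 3.38. Gbp5 was at 268 against 11.9 CPM and at 339 against 10.6. Irgm1 was at 397 against 27.3 CPM and at 551 against 36.95. Both stood far above the interferon-negative level, and Iigp1, of lower level, was at 67.7 against 3.505 CPM and at 98.9 against 1.79. Ifi47 was at 151 against 9.75 CPM and at 188 against 10.6. These genes are also known targets of interferon gamma. Its gene Ifng had 4 and 1 UMIs in the whole libraries, and whether interferon gamma acted on the members was not tested.

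Antigen presentation was higher in its peptide loading genes. Of 13 measured MHC class I genes, 3 were past 2-fold higher and 0 lower, against 3.09% and 0.78% of all genes. Tap1, a subunit of the peptide transporter, was at 42.5 against 10.4 CPM and at 61.7 against 15.7. Its partner Tap2 had log2 ratios of 1.30 and 1.49, and the loading chaperone Tapbp had 1.26 and 1.54. The abundant B2m, the class I light chain, was at 1914 against 1636 CPM and at 1977 against 1627, and H2-D1 at 674 against 468 CPM and at 735 against 515, so both stayed under 2-fold. Of the MHC class II genes 2 were measured and neither passed.

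Of 15 measured chemokines, 8 were past 2-fold higher and 0 lower, against 3.09% and 0.78% of all genes. Cxcl10, a ligand of the T cell receptor Cxcr3, was at 7394 against 1349 CPM and at 8433 against 1449, and 91.1% and 95.6% of the members held a UMI. Ccl5 was at 216 against 6.40 CPM and at 260 against 11.8. Ccl7, a monocyte attractant, was at 2464 against 534 CPM and at 2869 against 684.5. These 3 were at higher levels in the members of both libraries. Ccl12 had log2 ratios of 1.32 and 1.64. Cxcl9 also passed, but 91.7% of its 24 UMIs in Foxq1flox/flox members came from 1 cell.

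A smaller part of the inflammatory genes than of the chemokines passed 2-fold. The medians over 24 measured NF-kB genes and inflammatory cytokines were 0.40 and 0.57. Of these genes, 6 were past 2-fold higher and 0 lower, against 3.09% and 0.78% of all genes. They included Il27, a cytokine subunit, at 42.5 against 1.07 CPM and at 33.3 against 1.05, and Cd40 at 58.4 against 8.38 CPM and at 53.3 against 9.27. Il6 was at 26.55 against 3.35 CPM and at 57.2 against 4.79. Tnfsf15, a TNF family ligand outside the list, was at 134 against 2.44 CPM and at 81.1 against 1.64, and 1 cell held 25.7% of its UMIs in Foxq1flox/flox members. Il1b, chosen after its values were seen as a common inflammatory cytokine, had log2 ratios of −0.02 and −0.42.

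Ifnb1, the gene of interferon beta, was found mostly in macrophages. The whole libraries held 419 and 700 Ifnb1 UMIs, and macrophages held 344 (82.1%) and 645 (92.1%) of them. The members alone held 205 (48.9%) and 427 (61.0%). The level was 272 against 8.08 CPM in Foxq1flox/flox and 237 against 10.6 CPM in Foxq1iECKO. Outside macrophages, 1 barcode of the Foxq1flox/flox library held 48 of the 75 remaining UMIs, and the Foxq1iECKO library had no such barcode. That barcode passed the endothelial and the neuron gates.

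Not all members held Ifnb1. A UMI was found in 34 of 112 Foxq1flox/flox members (30.4%, interval 22.02 to 39.8%) and in 93 of 274 Foxq1iECKO members (33.9%, interval 28.4 to 39.9%), against 2.65% and 3.53% of the interferon-negative macrophages. After thinning to 2000 UMIs, the shares were 20.7% and 23.05% of the members and 1.59% and 1.19% of the interferon-negative cells. The shares in neuron-gated cells, which are shallower, were 0.191% and 0.135%, from 4 and 2 cells. Of the 52 UMIs in the 4 Foxq1flox/flox cells, 48 were in 1 barcode. Free RNA itself was not measured. The UMIs were uneven, with up to 22 and 45 in 1 cell, and the 10 highest cells held 69.3% and 47.5% of the members' Ifnb1. By the number of gate genes held, 2.65%, 11.3%, 23.7%, 35.7% and 27.1% of Foxq1flox/flox macrophages with 0, 1, 2, 3 and 4 genes had an Ifnb1 UMI. The same shares in Foxq1iECKO were 3.53%, 9.44%, 24.3%, 30.6% and 36.1%. The interval of the class with 4 genes overlapped that with 3 genes in both libraries.

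**Figure D3:**
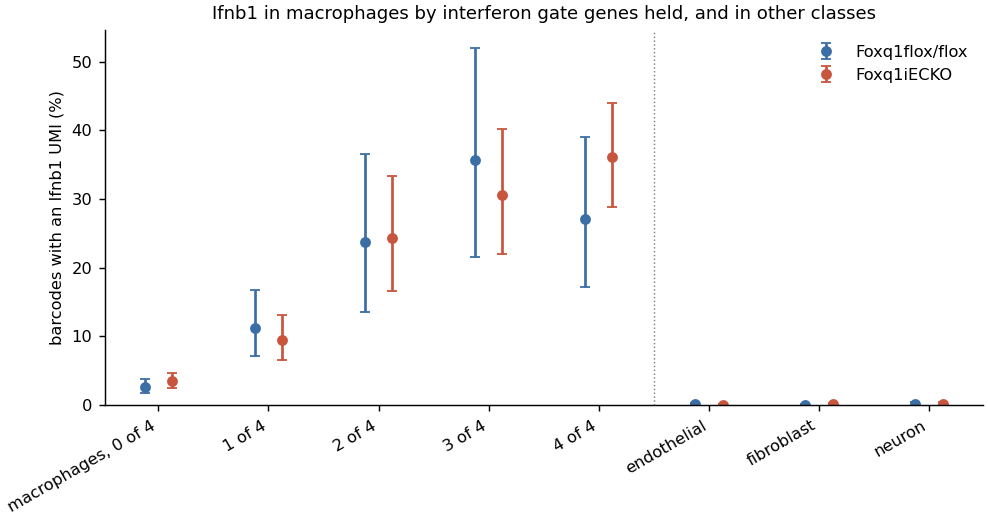
Percent of barcodes with an Ifnb1 UMI (vertical axis) in macrophages by the number of interferon gate genes held and in 3 other classes (horizontal axis). Points are the 2 libraries and bars are exact 95% binomial intervals; the share was 2.65% and 3.53% in macrophages with 0 gate genes and 27.1% and 36.1% in those with 4.

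Members that held Ifnb1 had higher levels of Tnf, Cxcl10 and Ccl5 than other members in both libraries. Tnf, chosen after its values were seen, was at 1643 CPM in the Ifnb1 holders against 748 in the other members in Foxq1flox/flox and at 1448 against 672 in Foxq1iECKO. Cxcl10 was at 10180 against 6239 CPM and at 10870 against 7292, and Ccl5 at 294 against 184 CPM and at 327 against 228.5. The summed antiviral effectors were at 6124 against 7191 CPM and at 8268 against 8067, with no common direction. Irf7 was at 9.05 against 20.7 CPM and at 17.4 against 27.7. These levels rest on only 13 and 44 Irf7 UMIs over all members, and 1 cell held 38.5% of the 13, so no direction is read from them. Il27 and Tnfsf15 differed in opposite directions in the 2 libraries, and Il6 was at 27.2 against 26.3 CPM and at 81.8 against 45.7. In Foxq1flox/flox members 1 cell held 28.1% of the Il27 UMIs, 25% of the Il6 UMIs and 25.7% of the Tnfsf15 UMIs. No direction is therefore read from these 3 genes. Il27 was at 67.9 against 31.9 CPM in Foxq1flox/flox and at 22.6 against 38.35 in Foxq1iECKO. Tnfsf15 was at 249 against 86.4 CPM in Foxq1flox/flox and at 67.9 against 87.3 in Foxq1iECKO. The median depths were 5600 and 5588 UMIs in the holders and 5902 and 6270 in the others. Ifnb1 holders were found in both named subsets, at 8 of 18 and 11 of 21 microglia-gated members and 16 of 60 and 62 of 184 border-gated members. Of the other type I, type II and type III genes listed, none passed the level of 10 CPM. The highest were Ifna2, with 6 and 5 UMIs in the whole libraries, and Ifnab, with 2 and 10.

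The summed levels of antiviral effectors rose with the number of gate genes held. These are sums over the cells of each class, so whether the response was graded within single cells was not tested. The summed level of the antiviral effectors, gate genes left out, was 1443, 1832, 3481, 4317 and 8202 CPM in Foxq1flox/flox macrophages with 0, 1, 2, 3 and 4 gate genes. In Foxq1iECKO it was 1601, 2088, 3294, 5639 and 9652 CPM. Each step was upward in both libraries, and the sums of macrophages just outside the threshold lay between those of the interferon-negative cells and the members. Cxcl10 followed the same order, from 1349 to 7795 CPM and from 1449 to 9300 CPM. The microglia markers had the reverse course at the ends of the scale, from 1441 to 660.5 CPM and from 1271 to 308 CPM.

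**Figure D4:**
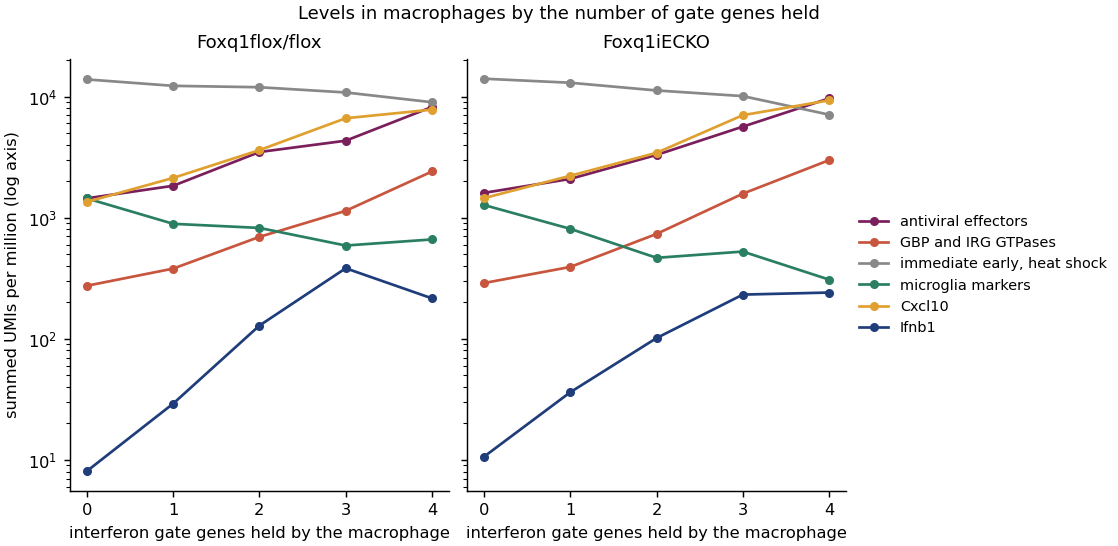
Summed CPM, on a log axis, of 4 gene lists and 2 genes (vertical axis) in macrophages that hold 0 to 4 of the interferon gate genes (horizontal axis), 1 panel per library. The antiviral effectors run from 1443 to 8202 CPM in Foxq1flox/flox and from 1601 to 9652 CPM in Foxq1iECKO, while the microglia markers run from 1441 to 660.5 CPM and from 1271 to 308 CPM.

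Genes lower in the members included markers of microglia. Of 5 measured microglia markers, 3 were past 2-fold lower and 0 higher, against 0.78% and 3.09% of all genes. The medians over the 5 markers were −1.24 and −1.68. P2ry12, a receptor by which microglia sense nucleotides, was at 392 against 925 CPM and at 255.5 against 819. Sall1, a transcription factor of microglia, was at 45.1 against 120 CPM and at 21.1 against 123. Gpr34 had log2 ratios of −1.27 and −1.75, Siglech −0.97 and −1.33 and Olfml3 −0.48 and −1.68. Among 5 measured border markers, Ms4a7 passed 2-fold higher (538 against 197 CPM and 513 against 246), and Mrc1 was at 2103 against 1467 CPM and at 2145 against 1558.

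The ratios of microglia and border markers were different within the gated subsets. These gates use the same markers, so small ratios there are partly set by the gates and are given only as a description. Within microglia-gated macrophages, P2ry12 was at 1481 against 1715 CPM and at 1480 against 1708, and 0 of 6 measured microglia markers passed 2-fold. Within border-gated macrophages the median over the border markers was −0.30 and −0.31, below 0 where the pooled median was 0.71 and 0.46. The interferon genes were higher in the members within each subset too, which the subset gates do not use. Over all genes, 1.32% were past 2-fold higher and 0.31% lower in microglia-gated cells, and 2.33% higher and 0.475% lower in border-gated cells. The antiviral effectors had medians of 3.18 and 3.73 with 18 of 26 past 2-fold higher in microglia-gated cells, and 2.71 and 2.71 with 24 of 29 past 2-fold higher in border-gated cells.

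Immediate early and heat shock genes, which respond fast to stimulation and to the stress of dissociation, were lower in the members. Of 22 measured, 7 were past 2-fold lower and 0 higher, against 0.78% and 3.09% of all genes, with medians of −0.75 and −1.03. Egr1 was at 672 against 1439 CPM and at 414 against 1256. Nr4a1, a nuclear receptor, was at 153 against 406 CPM and at 109 against 335. Fosb was at 50.45 against 124.5 CPM and at 41.7 against 152. All 3 were lower in the members of both libraries. Within border-gated macrophages 12 of 21 were past 2-fold lower, against 0.475% of all genes there, with medians of −1.10 and −1.26. Within the fewer microglia-gated ones (18 and 21 members) 1 of 22 was, against 0.31% of all genes there, with medians of −0.05 and −0.47. Whether the 2 subsets differ in this was not tested.

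Other named genes at the low end were few in UMIs or of mixed function. Havcr2, which encodes the inhibitory receptor Tim-3, was at 26.55 against 99.0 CPM and at 23.3 against 74.9. Adamts1, a secreted protease, was at 94.3 against 398 CPM and at 147 against 334. Cstdc5 and Stfa1, of the stefin family found in neutrophils, had 0 UMIs in Foxq1flox/flox members and 0 and 4 in Foxq1iECKO members, so Cstdc5 was at least 2.79-fold and at least 14.5-fold lower against a floor of 3 counts. The interferon-negative level came from few barcodes, with 73 and 162 Cstdc5 UMIs in 4 of 1133 and 4 of 1247 cells and 67 and 134 Stfa1 UMIs in 7 and 11 cells, so the same share of the members would be fewer than 1 cell in each library for Cstdc5. S100a8, a neutrophil and monocyte gene, had 1 and 0 UMIs in the members against 90 and 250 in the interferon-negative cells, which also lay in 4 and 4 cells. Of the other measured monocyte markers, Ccr2 had log2 ratios of 0.25 and −1.56 and Plac8 of 0.21 and −0.53.

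Few genes of general macrophage programmes passed 2-fold. Of 19 measured identity genes, gate genes left out, 0 were past 2-fold higher and 1 lower, against 3.09% and 0.78% of all genes. The summed level of the identity genes was lower in the members, at 5473 against 7322 CPM and at 4669 against 6759. Maf, a transcription factor of tissue macrophages, was at 1106 against 1121 CPM and at 1038 against 1136. Cx3cr1, the fractalkine receptor, was at 708 against 1335 CPM and at 519 against 1271. Of 24 phagocytosis and lysosome genes 0 passed in either direction, and Ctsb, a lysosomal protease, was at 4851 against 4796 CPM and at 4581 against 4672. Proliferation genes were present in the members. Mki67 had a UMI in 50.9% and 58.8% of them and was at 787 against 860.5 CPM and at 682 against 917. Of 19 S phase genes 0 passed, with medians of −0.25 and −0.42. Of 19 G2/M genes only Aurka passed, as lower, from 4 and 14 UMIs in the members. The G2/M medians were −0.49 and −0.57, and 0 of the 19 genes had a log2 ratio above 0 in either library. Within microglia-gated cells 4 of 20 G2/M genes were past 2-fold lower, against 0.31% of all genes there, with medians of −1.16 and −0.96. Within border-gated cells 1 of 19 was, against 0.475%, with medians of −0.23 and −0.53.

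Among p53 targets and apoptosis genes, 2 of 21 measured were past 2-fold higher and 0 lower. They were Mlkl, the executioner of necroptosis, at 30.5 against 3.81 CPM and at 35.55 against 5.24, and Daxx, a histone chaperone, at 142 against 20.1 CPM and at 137 against 15.9. Cdkn1a, a p53 target that blocks the cell cycle, stayed just under 2-fold, at 356 against 179 CPM and at 334 against 171. Of 19 hypoxia and glycolysis genes 1 passed, Pfkp, and of 10 AhR and NRF2 targets 1 passed, Tiparp, an enzyme that attaches single ADP-ribose units, at 706 against 309 CPM and at 722 against 329. Over all genes with at least 20 CPM, 3.09% were past 2-fold higher and 0.78% lower. The single genes of the last 2 lists are thus not read as a result about the lists. Hmox1 had log2 ratios of 0.16 and 0.41.

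Among the members, most interferon genes outside the gate differed by less than 1.5-fold between the genotypes. The median log2 ratio, Foxq1iECKO over Foxq1flox/flox, was 0.20 over the 29 antiviral effectors, 0.32 over the 13 GBP and IRG GTPases and 0.11 over the 16 sensors. Past 1.5-fold with an interval clear of equality were 1 of the 29 effectors, Oasl2 (216 CPM in Foxq1flox/flox and 352 in Foxq1iECKO), 0 of the GTPases and 0 of the sensors. Of all genes with at least 50 CPM, a stricter filter than that of the lists, 3.29% were higher and 2.69% lower. Oas1g (11.95 and 23.3 CPM), Ifi44 (7.97 and 16.7) and Gbp4 (22.6 and 37.2) were over 1.5-fold by CPM. They did not pass, with 9, 6 and 17 UMIs in Foxq1flox/flox members. Over all macrophages, which were not selected on the interferon gate, more genes of these lists passed by the same rule. There 13 of 25 measured antiviral effectors (median 0.62), 7 of 11 GTPases (median 0.81) and 4 of 14 sensors (median 0.10) were past 1.5-fold higher in Foxq1iECKO and 0 lower, against 1.41% of all genes higher and 0.151% lower. The share of interferon-high cells among these macrophages was 7.52% and 13.9%, as given above. In the interferon-negative macrophages 3 of 19 effectors, 1 of 10 GTPases and 0 of 12 sensors were past 1.5-fold higher, against 0.379% of all genes higher and 0.152% lower. The gate genes chose the members, and their levels are a description, with log2 ratios of 0.18 for Rsad2, 0.12 for Ifit1, −0.42 for Ifit2 and −0.04 for Ifit3. Ifnb1 was at 272 and 237 CPM, a log2 ratio of −0.20 with an interval of −0.44 to 0.05.

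**Figure D5:**
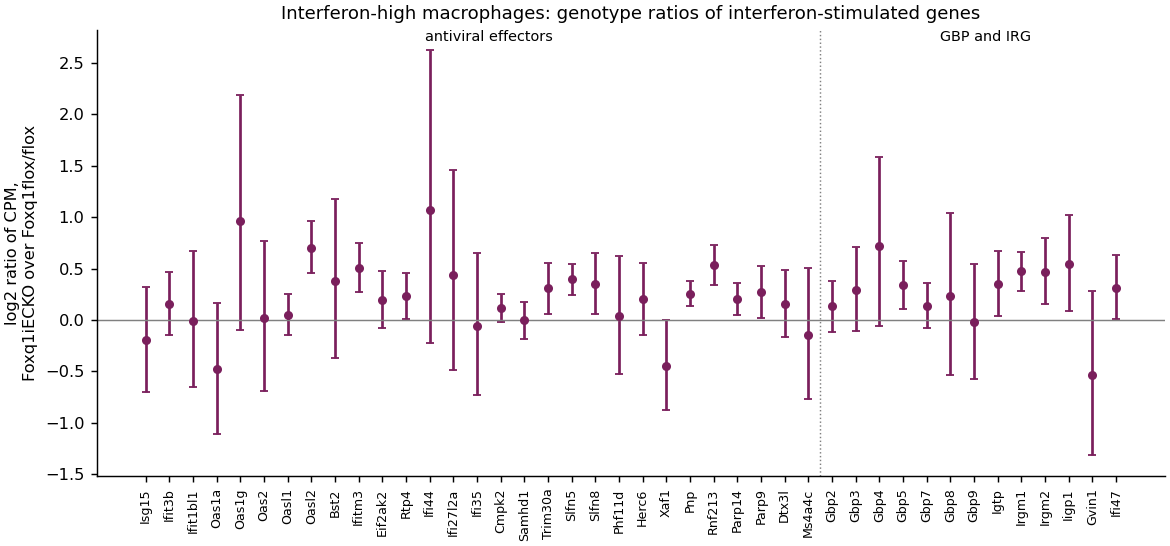
Log2 ratio of CPM in interferon-high macrophages, Foxq1iECKO over Foxq1flox/flox (vertical axis), for each measured antiviral effector and GBP or IRG GTPase (horizontal axis). Points are ratios of 1 library to the other and bars are exact 95% conditional intervals, which cover counting error only; the medians are 0.20 and 0.32.

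Over all genes, the ends of the order between genotypes held collagens and a pericyte gene on the higher side and mast cell proteases on the lower side. Among 3983 genes with at least 50 CPM in the members of 1 library, 131 (3.29%) were at least 1.5-fold higher in Foxq1iECKO with an interval clear of equality and 107 (2.69%) were at least 1.5-fold lower. In the interferon-negative macrophages 15 of 3957 were higher and 6 lower. The members' sums were 753219 and 1800126 UMIs, against 6562719 and 6685124, and in 51 of the 238 genes 1 cell held at least 20% of the UMIs of a library. The highest by interval limit were Ttr, Rgs5, Nid1, Col1a2, Col1a1 and Akap12, and the lowest Cma1, Cpa3, Runx2, Npnt, Ccr2 and Wdr19. Of the 238, 55.0% were higher in Foxq1iECKO. Leaving out the barcodes past another class's gate gave 91 higher and 146 lower genes (38.4% higher), of which 52 and 66 were among those above.

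Several of these genes belong to other cell types. Col1a1 and Col1a2, the collagen I chains of fibroblasts, were at 190 and 198 CPM in Foxq1flox/flox members and at 459 and 607 in Foxq1iECKO members, and 1 cell gave 68.5% and 65.8% of the Foxq1flox/flox UMIs. Both genes were also higher in Foxq1iECKO among interferon-negative macrophages, with log2 ratios of 1.15 and 0.73. Rgs5, a pericyte gene, had 9 UMIs in 5 Foxq1flox/flox members and 187 in 30 Foxq1iECKO members. Without the barcodes past another class's gate its log2 ratio was −0.19 in place of 3.12. Ttr, of the choroid plexus, had 0 and 93 UMIs, 92 of them in 1 cell. Members past the fibroblast gate numbered 5 (4.46%) and 30 (10.9%), and the 6 fibroblast markers summed to 502 and 1286 CPM over the members, against 585 and 1117 over the interferon-negative cells. The part of such barcodes in the other genotype differences was not tested gene by gene.

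Cma1 and Cpa3, proteases of mast cells, were lower in Foxq1iECKO members, but 1 cell held 94.7% and 64.0% of their Foxq1flox/flox UMIs. Npnt, an extracellular matrix protein, was at 154 CPM in 36 Foxq1flox/flox members and at 43.9 CPM in 37 Foxq1iECKO members, with no cell over 16.5% of either sum. All 5 measured microglia markers were past 1.5-fold lower in Foxq1iECKO members, against 2.69% of all genes with at least 50 CPM. P2ry12 was at 392 CPM in Foxq1flox/flox and 255.5 in Foxq1iECKO, a log2 ratio of −0.62. Microglia-gated cells, a gate on the same markers, were 16.1% of the Foxq1flox/flox members and 7.66% of the Foxq1iECKO members, so the 2 values are not independent. In the interferon-negative cells, where the shares were 41.9% and 35.7%, P2ry12 had a log2 ratio of −0.17. Ifngr1, a chain of the interferon gamma receptor, was at 105 CPM in Foxq1flox/flox members and 47.2 in Foxq1iECKO members, a log2 ratio of −1.15 (interval −1.61 to −0.69), against −0.26 in the interferon-negative cells. The difference between these 2 ratios was not tested.

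Other lists between genotypes were given by a few genes. Of 22 immediate early and heat shock genes, 2 were past 1.5-fold lower in Foxq1iECKO members and 0 higher. Over all genes with at least 50 CPM, 2.69% were lower and 3.29% higher. Hspb1, a small heat shock protein, was at 19.9 and 6.67 CPM, and Egr1 was at 672 and 414 CPM, a log2 ratio of −0.70 against −0.20 in the interferon-negative cells. Of 5 border markers, 1 was past 1.5-fold higher and 1 lower, with a median of 0.03. Cd163, a scavenger receptor, was lower at 11.95 and 3.89 CPM, from 9 and 7 UMIs. Lyve1, a receptor for hyaluronan, was at 421 CPM in Foxq1flox/flox members and 632 in Foxq1iECKO members, a log2 ratio of 0.59 against 0.55 in the interferon-negative cells. Haemoglobin genes summed to 82.3 and 440 CPM over the members, and 1 cell held 63.5% of the Hbb-bs UMIs in Foxq1iECKO. Pecam1, which encodes CD31, was at 22.6 and 37.2 CPM in the members and had a UMI in 11.6% and 10.9% of them, against 32.9 and 21.99 CPM in the interferon-negative cells.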

How the data were processed

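Dissociated cells of E12.5 mouse brain, sorted with beads against CD31, were captured on a microwell platform, with 1 library per genotype. The authors deposited UMI counts per gene and barcode, made with fastp 0.24.0 and STARsolo 2.7.11b against mm10 per the submitters' processing notes. How reads fitting several genes were counted is not given, so near-identical genes (Ifit3 and Ifit3b, the Ifi200 and Oas1 genes, Hba-a1 and Hba-a2) are uncertain.

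Gates, sums over cells, CPM and exact 95% intervals were computed with Python 3.11.15, numpy 2.4.6, scipy 1.17.1 and pandas 2.3.3. The 2-fold calls and their intervals were tried on simulated sums with counting error only. Spread between cells was not simulated, so the calls were not tested under it. A gene at 0 was set to a floor of 3 counts per summed population. The call of 2-fold used genes of at least 20 CPM, lists 10 CPM, and the genotype call of 1.5-fold 50 CPM. No doublet caller was run. Barcodes past another class's gate were kept and left out as an alternative.

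The members and lists were chosen with earlier results of these data known. Named were the gate genes, the 15 highest and 15 lowest genes by the weaker interval limit, up to 5 genes per list by size and then level, 6 each way between genotypes, Foxq1 and Pecam1; other names are marked as chosen after their values were seen, or complete a small count. Mitochondrially encoded, ribosomal, haemoglobin, sex-linked and predicted genes were left out of the ranked names. Alternatives changed the gates, depth, filters, scaling, weighting and pseudocount. Those added after seeing the data were a macrophage gate on Csf1r and the C1q genes, equal subset weights, and mixed barcodes left out of the lists. Promoters came from RefSeq (GRCm38.p6). Some genes that the naming rule selects are not reported here.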

Additional observations from a re-analysis of the deposited data

Results flagged for a closer look

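For 6 genes the members lay past 2-fold on opposite sides of the interferon-negative macrophages in the 2 libraries, and the difference between the libraries was not tested. Log2 ratios of members to interferon-negative cells are given for Foxq1flox/flox and then Foxq1iECKO. The mast cell genes Cma1 (6.05 and −3.83), Cpa3 (2.29 and −1.94) and Hdc (1.73 and −1.07) were 3 of them, and 1 cell held 94.7%, 64.0% and 81.2% of their UMIs in Foxq1flox/flox members. Maob, a monoamine oxidase, had 4.12 and −2.24, with 68.2% of its Foxq1flox/flox UMIs in 1 of 2 cells. Fabp7, a fatty acid binding protein of radial glia, had 1.29 and −1.60 from 7 and 16 cells. Runx2, a transcription factor of bone, had 1.48 and −1.03 from 8 and 15 cells.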

How the results depend on the processing

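With 1 library per genotype, no replicate could be left out and no paired analysis was possible because no replicate numbers are shared. The log2 ratio of the interferon-high share between genotypes ranged from 0.68 to 1.04 over the alternatives run. The shares themselves were 11.5% and 19.5% with at least 2 of 4 gate genes, 4.70% and 8.42% with all 4, and 5.70% and 9.98% after thinning. Genes lower in the members numbered 85 with all 4 gate genes, 97 without barcodes past another class's gate, 84 with a filter of 1 UMI and 25 with one of 50 CPM, against 54. Between genotypes, 272 genes were higher and 229 lower with a filter of 20 CPM, and 51 and 27 with one of 100 CPM. With a pseudocount of 5 CPM, the Foxq1iECKO medians were 2.30 for antiviral effectors, 1.54 for sensors and 2.98 for GTPases. Within microglia-gated cells the Foxq1iECKO medians were 3.73 for antiviral effectors and 2.32 for sensors. There the Foxq1flox/flox and Foxq1iECKO medians were 1.41 and 2.69 for GTPases, −0.034 and −0.36 for microglia markers, 0.95 and −0.57 for border markers, and −0.050 and −0.47 for immediate early genes, and the monocyte median in Foxq1iECKO was 0.11 in place of −1.56. Within border-gated cells they were −0.31 and −0.72 for microglia markers, −0.30 and −0.31 for border markers, −1.10 in Foxq1flox/flox for immediate early genes and 2.71 in Foxq1iECKO for antiviral effectors. Without barcodes past another class's gate, the border median in Foxq1flox/flox was 0.48. Border markers thus changed sign in both libraries within border-gated cells and in Foxq1iECKO alone within microglia-gated cells, and the cause was not tested. With the gate on Csf1r and the C1q genes, Cstdc5 and, in Foxq1flox/flox, Stfa1 and S100a8 gave no value against 0 counts, nor did Ttr between genotypes. Depth limits genes of few UMIs in the 112 Foxq1flox/flox members most, and the intervals cover counting error only.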
